A study of Mus musculus with 8 samples.

Results

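Endothelial cells line the blood and lymph vessels, and their RNA was followed here through 10 genes in the small intestine of tumour-prone mice. They form a list of named genes and were not picked by a threshold on their values: Angpt2, Tek, Tie1, Kdr, Flt1, Eng, Pecam1, Cdh5, Esam and Vwf. Every probe set that the platform annotation assigns to 1 of them and to no other gene was taken, which gave 16 of 45101 probe sets. Flt1 had 4 probe sets, Eng, Cdh5 and Angpt2 had 2 each and the other 6 genes had 1 each. After a filter on the mean signal, 13 of the 16 probe sets and 9 of the 10 genes were kept for testing, out of 13119 genes tested. Tie1 did not pass and is given by its values alone.

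The study asked how loss of HAI-1, a membrane-bound inhibitor of serine proteases encoded by Spint1, bears on intestinal tumour formation. All mice were C57BL/6, carried Apc (Min/+), which gives them intestinal tumours, and carried loxP-flanked Spint1 alleles (flox/flox) in both the control and the deficient animals. Control mice were Apc (Min/+)/Spint1 (flox/flox) and had no Cre, while HAI-1 deficient mice were Apc (Min/+)/Spint1 (flox/flox)/Vil-Cre. The 4 groups, with 2 Affymetrix arrays each, were tumours and tumour-free mucosa of the small intestine in either genotype, called control mucosa, deficient mucosa, control tumours and deficient tumours below. The mice ate a semipurified AIN-76 diet, and no drug or age is given in the labels. Cre was driven by the villin promoter, which acts in intestinal epithelium, so the deletion was made in epithelial cells and not in the endothelium described here. The labels do not say whether arrays of a group hold separate mice or pools, nor whether a tumour and a mucosa array share a mouse. The p-values therefore measure only the spread between these samples, which may be technical.

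New vessels grow when vascular endothelial growth factors bind their receptors Kdr and Flt1 on endothelial cells. The angiopoietins act on a second receptor system, Tek (also called Tie2) and its partner Tie1: Angpt1 holds vessels quiet, and Angpt2, made by the endothelium itself, loosens them. Cdh5, Pecam1 and Esam hold endothelial cells to each other, Eng is a co-receptor for BMP and TGF-beta ligands, and Vwf is the clotting protein that endothelial cells store in Weibel-Palade bodies. Tumours, like the villi of the gut, depend on such vessels for their supply.

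All 9 tested endothelial genes had a higher mean in control tumours than in control mucosa, and the rise passed the test for Vwf, Eng, Esam, Tek, Cdh5 and Angpt2. The called rises ran from 2.47-fold for Angpt2 to 7.09-fold for Vwf (n = 2 arrays a group). In HAI-1 deficient mucosa, Tek rose 4.77-fold over control mucosa, a call that held in only 8 of 17 alternative fits. The means of Cdh5, Vwf, Flt1, Eng and Esam were 1.13 to 2.29 higher there on the log2 scale without passing. Tumours of the 2 genotypes showed no called difference in any of the 9. Since these are whole-tissue samples, more endothelial cells and more RNA of these genes per cell cannot be told apart.

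Values are log2 signals. A difference between groups is given on the log2 scale ± its standard error (SE), estimated over all 8 arrays. A gene was called when its p-value from limma, adjusted by the Benjamini-Hochberg method over all 13119 genes, was under 0.05. Facts of the arrays bear on all of these values. The ratio of 3' to 5' signal of Gapdh, a measure of RNA integrity, was 25.9 on control tumour array 2 and 0.803 to 1.77 on the other 7. The same ratio for Actb was 2.32 on control tumour array 2 and 1.15 to 1.52 on the other 7. The mean signal of 24 poly-A spike-in probe sets was 7.90 to 8.35 on 3 arrays, those numbered 2 in every group but control tumours. It was 6.22 to 7.02 on the remaining 5. Spint1 itself read 12.87 and 13.002 in control mucosa against 12.46 and 12.25 in deficient mucosa, and 12.75 and 13.06 in control tumours against 11.76 and 11.84 in deficient tumours. Its differences of -0.58 (adjusted p = 0.271) and -1.10 (adjusted p = 0.779) were not called, although the arrays did not overlap. All 5 epithelial markers were above the filter on every array.

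**Figure D1:**
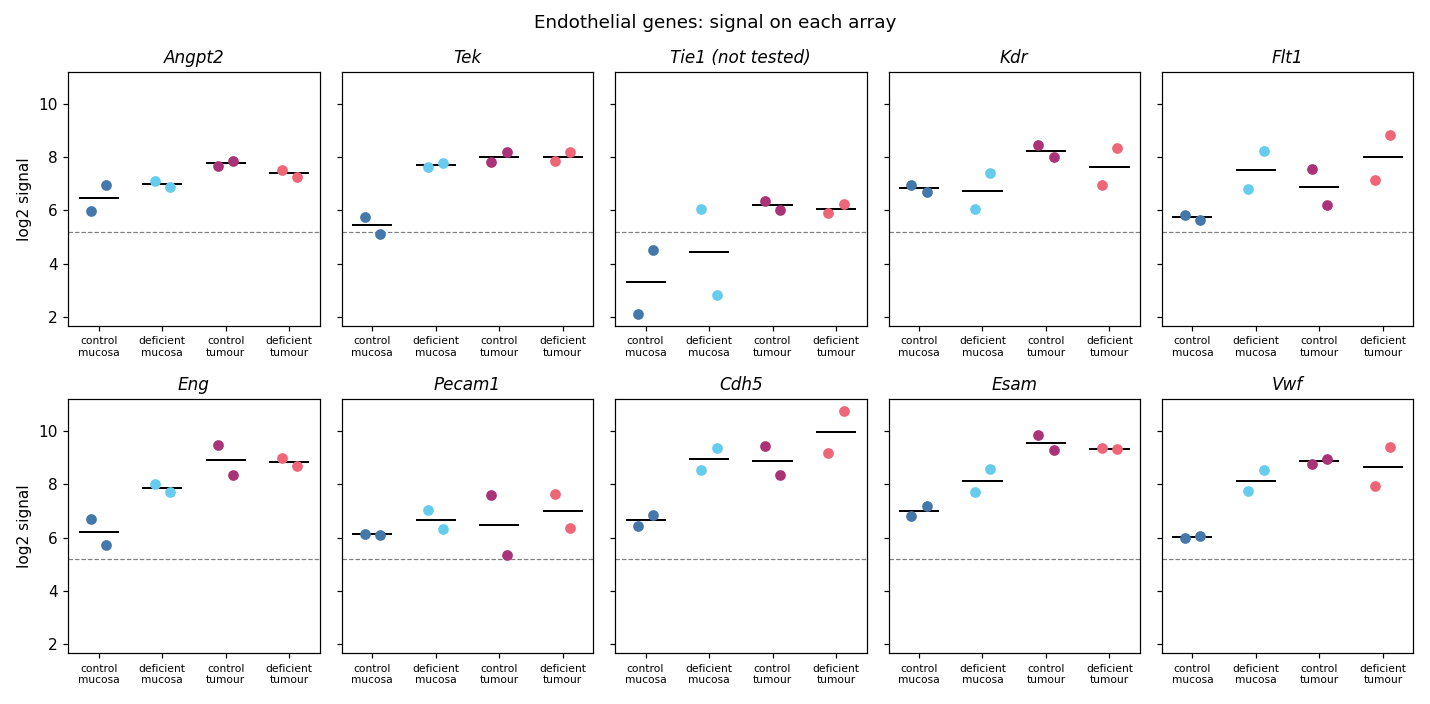
The panels show the log2 signal of each of the 10 genes on the 8 arrays; points are arrays, black bars are group means of 2 arrays and the dashed line is the filter at 5.20. For Tek, Flt1, Eng, Cdh5, Esam and Vwf both control mucosa arrays lie below all 6 other arrays, while Pecam1 and Kdr spread within their groups.

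Angpt2, the ligand made by endothelial cells, read 5.98 and 6.94 in control mucosa, 7.11 and 6.88 in deficient mucosa, 7.66 and 7.87 in control tumours and 7.52 and 7.25 in deficient tumours. Control tumours were the highest group and did not overlap any other. The rise from control mucosa to control tumours was 1.31 ± 0.35 (SE; adjusted p = 0.0285), or 2.47-fold. This call rested on single arrays: it ended without control mucosa array 1 (0.82), control tumour array 1 (1.41) or control tumour array 2 (1.20). It also ended under quantile normalization (1.13, adjusted p = 0.0922) and with only the groups compared (adjusted p = 0.0591). The difference between the 2 mucosa groups was 0.54 ± 0.35 (adjusted p = 0.487), with overlapping arrays. In tumours both deficient arrays lay below both control arrays, at -0.38 ± 0.35 (adjusted p = 0.809), which was not called. A second Angpt2 probe set was under the filter on all 8 arrays.

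Tek, the receptor for the angiopoietins, had the most even pattern: 5.77 and 5.12 in control mucosa, 7.63 and 7.77 in deficient mucosa, 7.82 and 8.17 in control tumours and 7.86 and 8.17 in deficient tumours. The 2 control mucosa arrays were low and the other 6 ran from 7.63 to 8.17. Tek rose by 2.55 ± 0.30 in control tumours over control mucosa (adjusted p = 0.00203). It also rose by 2.25 ± 0.30 in deficient over control mucosa (adjusted p = 0.0348). One of the low arrays was under the filter of 5.20, and with that array set at the filter the differences were 2.51 and 2.21. The mucosa call was lost when either control mucosa array (adjusted p = 0.0537 and 0.0911), either deficient mucosa array (0.122 and 0.151) or either control tumour array (0.0669 for each) was left out. Within arrays of like spike-in signal, the mucosa difference was 1.86 for the low pair and 2.65 for the high pair. Deficient tumours differed from deficient mucosa by 0.32 ± 0.30 (adjusted p = 0.555) and from control tumours by 0.02 ± 0.30 (adjusted p = 0.990).

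Tie1, the partner receptor of Tek, read 2.10 and 4.51 in control mucosa, 6.03 and 2.82 in deficient mucosa, 6.35 and 6.03 in control tumours and 5.89 and 6.23 in deficient tumours. All 4 tumour arrays were above the filter, while 3 of the 4 mucosa arrays were under it. Its mean over the 8 arrays was below the filter, so Tie1 was not tested.

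Kdr, the main signalling receptor for VEGF-A, read 6.96 and 6.70 in control mucosa, 6.06 and 7.39 in deficient mucosa, 8.44 and 8.02 in control tumours and 6.96 and 8.33 in deficient tumours. Control tumours lay above control mucosa without overlap, by 1.40 ± 0.55, but the difference was not called (adjusted p = 0.0967). Kdr was called with the control groups fitted alone (adjusted p = 0.0228) and with the spike-in signal as a term (1.81, adjusted p = 0.0378). In the other 15 of 17 alternatives Kdr was not called. It was the 1 member whose mean was not higher in deficient than in control mucosa (-0.10 ± 0.55, adjusted p = 0.953), and the 2 deficient arrays lay either side of the control arrays.

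Flt1, the receptor that also exists as a soluble VEGF trap, was measured by 4 probe sets. The one tested, with the highest mean, read 5.83 and 5.64 in control mucosa, 6.80 and 8.23 in deficient mucosa, 7.54 and 6.1998 in control tumours and 7.15 and 8.82 in deficient tumours. Array 2 was the higher one in both deficient groups and the lower one in control tumours. Flt1 was 1.78 ± 0.70 higher in deficient than in control mucosa (adjusted p = 0.250) and 1.13 ± 0.70 higher in control tumours than in control mucosa (adjusted p = 0.262), and neither was called. Both differences were without overlap. The control tumour value was 0.46 without control tumour array 1 and 1.81 without array 2, the one with the high Gapdh ratio. The mucosa value was 1.07 without deficient mucosa array 2. Within arrays of like spike-in signal, the mucosa difference of Flt1 was 0.97 for the low pair and 2.58 for the high pair. With the spike-in signal as a term the mucosa difference was not called either. Why the 2 pairs differ was not tested.

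Eng, the co-receptor for BMP9 and TGF-beta ligands, read 6.69 and 5.72 in control mucosa, 7.998 and 7.71 in deficient mucosa, 9.48 and 8.34 in control tumours and 8.97 and 8.70 in deficient tumours. The groups did not overlap from control mucosa to deficient mucosa to tumours, while the tumour groups overlapped each other. Eng rose by 2.71 ± 0.45 in control tumours over control mucosa (adjusted p = 0.00594), or 6.54-fold. Its difference of 1.65 ± 0.45 between the mucosa groups was not called (adjusted p = 0.119), nor was that of 0.98 ± 0.45 between deficient tumours and deficient mucosa (adjusted p = 0.228).

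Promoters of 5 of the 10 genes were matched in the RefSeq table of assembly GRCm38.p6. Of these, the receptors Tek and Eng were called in control tumours, the receptors Kdr and Flt1 were not, and Tie1 was not tested. The genes were not tested against each other. The 3 promoters shown are those of Tek, Eng and Kdr. Each runs from 250 bases before to 50 after the start, 5′ to 3′ on the gene's strand, at chr4:94739039-94739338 (plus strand), chr2:32646345-32646644 (plus strand) and chr5:75978406-75978705 (minus strand). Capitals mark 3 sets of letters searched on both strands: the ETS core AGGAAG or CGGAAG, the GATA site AGATAA and the GC box GGGCGG. Where capitals read CTTCCT or CCGCCC, the match lies on the opposite strand.
Tek: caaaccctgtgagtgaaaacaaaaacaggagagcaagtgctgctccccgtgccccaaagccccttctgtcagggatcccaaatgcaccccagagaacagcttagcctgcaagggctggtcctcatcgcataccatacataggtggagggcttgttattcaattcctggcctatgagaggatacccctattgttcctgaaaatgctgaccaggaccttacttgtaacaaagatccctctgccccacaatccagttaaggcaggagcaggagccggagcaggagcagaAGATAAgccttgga
Eng: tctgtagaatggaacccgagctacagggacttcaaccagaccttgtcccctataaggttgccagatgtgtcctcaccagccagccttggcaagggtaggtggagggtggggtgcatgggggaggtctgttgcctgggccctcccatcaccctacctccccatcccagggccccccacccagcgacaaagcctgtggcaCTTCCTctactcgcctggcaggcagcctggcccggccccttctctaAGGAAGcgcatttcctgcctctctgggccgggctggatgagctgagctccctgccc
Kdr: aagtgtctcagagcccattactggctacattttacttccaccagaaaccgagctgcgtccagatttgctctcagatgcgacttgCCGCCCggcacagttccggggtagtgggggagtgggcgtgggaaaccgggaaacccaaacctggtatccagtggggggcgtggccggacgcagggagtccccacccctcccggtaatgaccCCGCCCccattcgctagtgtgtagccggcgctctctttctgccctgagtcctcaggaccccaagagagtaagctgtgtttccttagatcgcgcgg

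The Tek window held 1 GATA match, at bases 37 to 42 after the start, and no match to the ETS letters searched. Eng held 2 ETS matches, the nearer one ending at the base before the start, and Kdr held 2 GC boxes. Of the others, not printed, Flt1 held 2 ETS matches and 3 GC boxes, and Tie1 held 3 ETS matches. Among 32851 RefSeq promoters of this length, 46.5% held the ETS letters, 11.2% the GATA letters and 35.7% the GC box. Such a match describes the letters and is not evidence that a factor binds there.

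Pecam1, the platelet and endothelial adhesion molecule, read 6.15 and 6.09 in control mucosa, 7.02 and 6.32 in deficient mucosa, 7.60 and 5.34 in control tumours and 7.62 and 6.38 in deficient tumours. The 2 control tumour arrays were 2.26 apart and lay either side of the mucosa values. No difference of Pecam1 was called, and in control tumours over control mucosa it was 0.35 ± 0.72 (adjusted p = 0.751). The low value came from control tumour array 2, the array with the high Gapdh ratio. Without that array the difference was 1.48 (adjusted p = 0.126), and without control tumour array 1 it was -0.78. The part of RNA quality in the Pecam1 value was not tested.

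Cdh5, the VE-cadherin of endothelial adherens junctions, read 6.44 and 6.86 in control mucosa, 8.53 and 9.35 in deficient mucosa, 9.44 and 8.34 in control tumours and 9.19 and 10.76 in deficient tumours. Both control mucosa arrays were low, and the other 3 groups overlapped each other. The rise in control tumours over control mucosa was 2.24 ± 0.59 (adjusted p = 0.0280), or 4.71-fold. That call ended without control mucosa array 1 (adjusted p = 0.121), control mucosa array 2 (0.0737) or control tumour array 1 (1.69, adjusted p = 0.142). In deficient over control mucosa Cdh5 showed the widest difference of the 9 genes, 2.29 ± 0.59, without a call (adjusted p = 0.108). With the mean of its 2 probe sets, the second of which is near the filter, that difference was 0.87 and no longer the widest. Within arrays of like spike-in signal, the difference of the tested probe set was 2.09 and 2.49.

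Esam, an adhesion molecule of endothelial tight junctions that platelets also carry, read 6.80 and 7.20 in control mucosa, 7.70 and 8.56 in deficient mucosa, 9.83 and 9.29 in control tumours and 9.35 and 9.32 in deficient tumours. The 4 tumour arrays were the highest and the 2 control mucosa arrays the lowest. Esam rose by 2.56 ± 0.36 in control tumours (adjusted p = 0.00334), or 5.91-fold. In deficient mice its tumour difference, 1.20 ± 0.36, was the widest of the members but was not called (adjusted p = 0.0984). The mucosa difference was 1.13 ± 0.36 (adjusted p = 0.162).

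Vwf, the stored clotting factor that tethers platelets, read 5.99 and 6.07 in control mucosa, 7.74 and 8.52 in deficient mucosa, 8.75 and 8.96 in control tumours and 7.94 and 9.39 in deficient tumours. The control mucosa arrays were 0.08 apart and the lowest, and the deficient tumour arrays spanned the values of control tumours. Vwf rose by 2.83 ± 0.48 in control tumours over control mucosa (adjusted p = 0.00614), or 7.09-fold. In deficient over control mucosa it was 2.10 ± 0.48 higher without a call (adjusted p = 0.0836). That value passed under a stricter filter (adjusted p = 0.0474) and with a mean-variance trend (adjusted p = 0.0492). It also passed when either deficient tumour array was left out. Those arrays are not in this comparison, so the difference stayed at 2.10 and only its standard error changed, to 0.32. Under the other 13 of 17 alternatives the Vwf difference was not called.

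**Figure D2:**
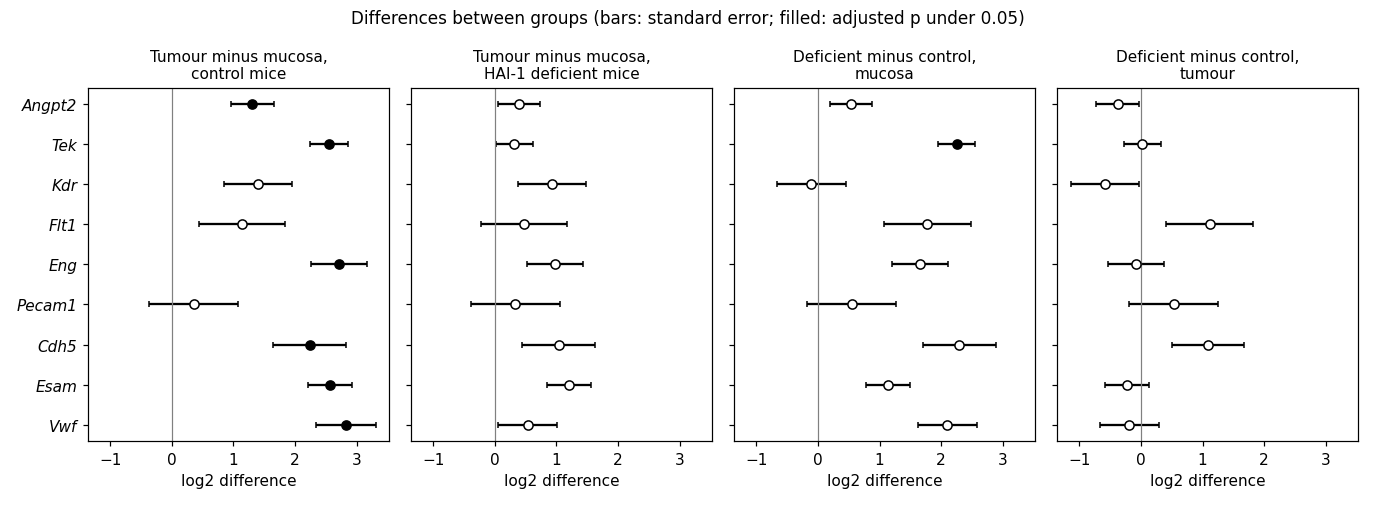
Each point is the log2 difference of 1 gene in 1 comparison, from the fit across all 8 arrays; bars are the standard error and filled points were called at an adjusted p under 0.05. In control mice 6 of 9 tumour differences are filled, in deficient mucosa only Tek is, and in the other 2 panels none is.

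Read by comparison, 6 of 9 members were called higher in control tumours over control mucosa and 0 lower, and 21.2% of all genes tested were called higher. The arrays of both groups did not overlap for 8 of the 9, the exception being Pecam1. Of all genes tested, 45.3% were higher without overlap. The members' median difference was 2.24, against 0.24 over all genes. Without control tumour array 2, the array with the high Gapdh ratio, 5 of the 9 were called; Angpt2 was the one lost.

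In HAI-1 deficient mice the differences between tumours and mucosa were smaller and none of the 9 was called by limma. Only 1 member, Esam, had an unadjusted p under 0.05, against 3297 of the 13119 genes tested. Of all genes tested, 2.45% were called higher there. All 9 differences were above 0, from 0.32 for Tek to 1.20 for Esam, with a median of 0.53 against 0.18 over all genes. Angpt2, Tek, Eng and Esam were higher in deficient tumours without overlap, 4 of 9, where 36.6% of all genes were. Averaged over both genotypes, tumours were called higher for the same 6 genes as in control mice, and 25.7% of all genes were called higher in that average. Esam led it at 1.88 ± 0.25 (adjusted p = 0.00200), and the lowest of the called averages was Angpt2 at 0.85 ± 0.25 (adjusted p = 0.0315).

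In deficient over control mucosa, Tek alone of the 9 members was called, where 0.899% of all genes were called higher. Of the 9, 7 lay above control mucosa on both deficient arrays without overlap, the exceptions being Kdr and Angpt2, while 30.9% of all genes did. The members' median difference was 1.65, against 0.11 over all genes. Of the 9, 6 had an unadjusted p under 0.05, as did 2295 of the 13119 genes tested. The differences in control tumours and in deficient mucosa were both taken against the same 2 control mucosa arrays, so they are not independent of each other. In array 2 over array 1 of the same group, 6 of 9 members were higher in deficient mucosa, with a median step of 0.78, and 4 of 9 in control mucosa.

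Between deficient and control tumours, 0 of 9 members were called by limma, as were 0% of all genes tested. None of the 9 had an unadjusted p under 0.05, against 802 of all genes. Differences ran from -0.58 for Kdr to 1.11 for Flt1, 4 above 0 and 5 below. Higher without overlap were 0 of the 9, where 18.6% of all genes were. Lower without overlap was 1 member, Angpt2, and the share of all genes lower in this way was not counted. With standard errors of 0.30 to 0.72, log2 differences of the size seen for Flt1 and Cdh5 (1.09 ± 0.59, adjusted p = 0.779) were not detectable.

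Whether the tumour difference itself differed between genotypes was tested as an interaction. All 9 values were negative, from -0.02 for Pecam1 to -2.29 ± 0.68 for Vwf, with a median of -1.20 against -0.12 over all genes. Limma called 0 of the 9 and 0% of all genes, while 4 members (Tek, Vwf, Esam and Eng) and 1211 of all genes had an unadjusted p under 0.05. The smallest adjusted p was 0.254, for Tek at -2.23 ± 0.43. A smaller tumour difference in deficient mice was thus not established for any member.

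**Figure D3:**
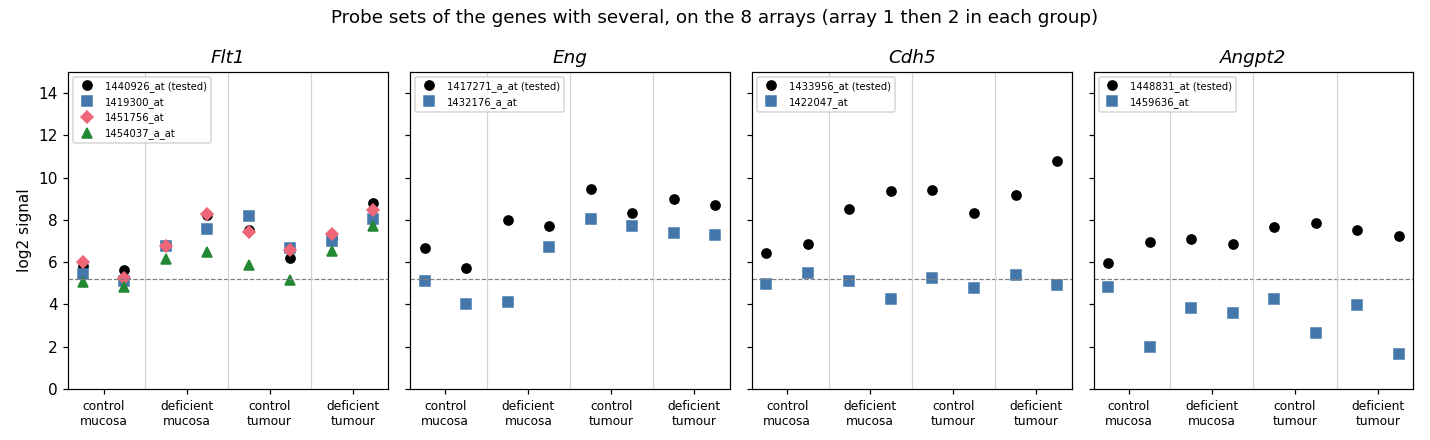
Log2 signal of every probe set of the 4 members that have several, on each array (array 1 then array 2 within a group); the dashed line is the filter at 5.20. The 4 Flt1 probe sets are lowest in control mucosa, the second Eng probe set is high on the 4 tumour arrays, and the second probe sets of Cdh5 and Angpt2 lie near or under the filter.

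Other probe sets of the same genes gave a second reading. In a fit with every one of 23065 probe sets as its own row, both Eng probe sets rose in control tumours over control mucosa, by 2.71 (adjusted p = 0.00917) and 3.30 (adjusted p = 0.0231), and 15% of all probe sets were called higher. The second Eng probe set read 5.10 and 4.04 in control mucosa, 4.13 and 6.73 in deficient mucosa, 8.03 and 7.72 in control tumours and 7.40 and 7.29 in deficient tumours. Of the 4 Flt1 probe sets, 1 that did not stand for the gene rose by 2.14 ± 0.58 (adjusted p = 0.0364) and the others, at 0.56 to 1.38, were not called, so the Flt1 result depended on the probe set. That probe set read 5.43 and 5.12 in control mucosa, 6.75 and 7.55 in deficient mucosa, 8.17 and 6.68 in control tumours and 6.99 and 8.04 in deficient tumours. In deficient over control mucosa the 4 Flt1 differences were 1.36 to 1.89, with adjusted p-values of 0.208 to 0.321. None of the 13 member probe sets was called there, where 0.0737% of all probe sets were called higher. Over the 8 arrays, the Flt1 probe sets correlated with each other at 0.77 to 0.97 and those of Eng at 0.81, while those of Cdh5 correlated at -0.28 and those of Angpt2 at -0.32. These correlations describe arrays that share their group means.

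The members also differed in how closely each followed the others. Over the 8 arrays, Esam correlated with the mean scaled level of the other 8 at 0.94, Vwf and Eng at 0.92, Cdh5 at 0.91 and Tek at 0.88. Flt1 stood at 0.73, Angpt2 at 0.68, Kdr at 0.59 and Pecam1 at 0.30, as a description of 8 arrays in 4 groups. The genes outside the list with the most similar profile were Dkk2 (0.993), Gprc5b (0.990), Gm13889 (0.989), Atr (0.989) and Noc2l (0.988), by Pearson correlation over the 8 arrays. They were picked as the highest of all tested genes. In control mucosa Dkk2 (3.94 and 3.64) and Gprc5b (2.24 and 2.85) were under the filter on both arrays.

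The ligands and co-receptors that work with Kdr and Flt1 moved in both directions. Of 7 tested, 3 rose and 1 fell in control tumours over control mucosa, with a median of 1.06. Among all 13119 genes tested, 21.2% were called higher in that comparison and 1002 were called lower. The receptor Flt4, which also marks lymphatic vessels, rose by 2.36 ± 0.31 (adjusted p = 0.00278), and the neuropilins Nrp2 and Nrp1 rose by 1.63 ± 0.38 (adjusted p = 0.0176) and 1.06 ± 0.33 (adjusted p = 0.0461). Vegfa, the main ligand of Kdr, fell by 0.94 ± 0.26 on the log2 scale (adjusted p = 0.0326). It read 10.59 and 10.25 in control mucosa, 10.60 and 10.87 in deficient mucosa, 9.58 and 9.38 in control tumours and 9.93 and 10.20 in deficient tumours. Both control tumour arrays were the lowest of the 8. These 3 calls were not stable: that of Nrp1 ended under 12 of 17 alternatives, that of Vegfa under 8 of 17 and that of Nrp2 under 4 of 16. For Vegfa these took in each control array left out in turn, for Nrp2 either control mucosa array or control tumour array 1, and for Nrp1 all arrays but control mucosa array 1. In deficient over control mucosa none of the 7 was called.

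Partners of Angpt2 and Tek showed no common direction: of 6 tested, 1 rose and 1 fell in control tumours, with a median of -0.32. The share that rose is close to the 21.2% of all genes called higher. Ptprb, the phosphatase that restrains Tek, rose by 1.99 ± 0.37 (adjusted p = 0.00771). Its levels were 6.70 and 6.59 in control mucosa, 7.65 and 8.37 in deficient mucosa, 8.72 and 8.56 in control tumours and 7.66 and 8.51 in deficient tumours. Angptl4, a secreted angiopoietin-like protein that inhibits lipoprotein lipase, fell by 2.70 ± 0.52 (adjusted p = 0.00916). Both calls ended when the probe sets of a gene were averaged.

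The counts of the lists described next stand beside 21.2% of all genes called higher in control tumours, and no test compared the lists with each other. Some listed genes were brighter than any member, such as Klf4 (mean 13.42) and F11r (12.41). Which cells carried the RNA of the listed genes was not tested. Of 44 tested surface and junction genes outside the 10, 27 rose and 2 fell in control tumours, with a median of 1.88. Of 13 Notch and tip cell genes 7 rose and none fell, and of 20 endothelial transcription factors 8 rose and 1 fell. Aplnr, the apelin receptor of sprouting and venous endothelium, rose by 4.40 ± 0.44 (adjusted p = 0.00136), or 21.1-fold. Aplnr read 7.32 and 6.59 in control mucosa, 6.73 and 7.03 in deficient mucosa, 11.54 and 11.17 in control tumours and 10.58 and 9.40 in deficient tumours. It was high on all 4 tumour arrays, and the arrays of the 2 mucosa groups overlapped (-0.08 ± 0.44, adjusted p = 0.957). In deficient mice Aplnr also rose in tumours, by 3.11 (adjusted p = 0.0281).

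Selp, the P-selectin that shares the Weibel-Palade bodies with Vwf, read 2.87 and 4.21 in control mucosa, 5.71 and 4.41 in deficient mucosa, 9.25 and 8.11 in control tumours and 7.74 and 6.35 in deficient tumours. Both control mucosa arrays were under the filter, so its rise in control tumours (adjusted p = 0.00314) is given as a bound of at least 3.48 on the log2 scale, with those arrays set at the filter. Notch4, a Notch receptor of endothelial cells, rose by 3.18 ± 0.35 there (adjusted p = 0.00173), a call that ended when its probe sets were averaged. Esm1, a proteoglycan secreted by tip cells, rose by 2.58 ± 0.43 (adjusted p = 0.00598).

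Ecscr, an endothelial surface protein that regulates chemotaxis, read 7.57 and 7.62 in control mucosa, 9.54 and 10.21 in deficient mucosa, 11.77 and 11.27 in control tumours and 11.49 and 11.85 in deficient tumours. It rose in control tumours by 3.92 ± 0.32 (adjusted p = 0.000867) and in deficient mucosa by 2.28 ± 0.32 (adjusted p = 0.0372). Sox17, a transcription factor of arterial endothelium, read 8.36 and 8.67 in control mucosa, 11.43 and 12.20 in deficient mucosa, 12.0003 and 11.51 in control tumours and 12.16 and 13.60 in deficient tumours. Its rise was 3.24 ± 0.50 in control tumours (adjusted p = 0.00451) and 3.30 ± 0.50 in deficient mucosa (adjusted p = 0.0395). Control mucosa alone was low for Sox17, as it was for Tek. The mean of Sox17 over the 8 arrays, 11.24, was above that of every tested member, the highest being Cdh5 at 8.61. Which cells carried the Sox17 RNA was not tested. Fabp4, a fatty acid binding protein of capillaries and fat cells, read 6.71 and 7.29 in control mucosa, 9.75 and 10.31 in deficient mucosa, 10.13 and 10.67 in control tumours and 9.47 and 10.11 in deficient tumours.

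The rise of Fabp4 in deficient mucosa was 3.03 ± 0.37 (adjusted p = 0.0348). The counts that follow stand beside 0.899% of all genes called higher in deficient over control mucosa. Fabp4, Ecscr and Palmd were the 3 of 44 surface and junction genes called there, and Sox17 the 1 of 20 transcription factors. Besides these, Lamb1 was called among 12 basement membrane genes (2.10 ± 0.35, adjusted p = 0.0448) and Plat, the tissue plasminogen activator, among 8 genes of the Weibel-Palade body. Of 12 hypoxia-induced genes 2 were called higher in deficient mucosa: Slc2a1, a glucose transporter, by 1.97 ± 0.32 (adjusted p = 0.0443) and Car9, a carbonic anhydrase, by 1.77 ± 0.26 (adjusted p = 0.0395). None of the VEGF, angiopoietin, Notch, endoglin and BMP, angiogenesis inhibitor or lymphatic genes was called in deficient mucosa. Each of these deficient-mucosa calls, like that of Tek, ended under several of the alternatives, leave-one-out fits included.

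Genes of the layers around the endothelium were listed separately. Of 12 vascular basement membrane genes 8 rose and none fell, with a median of 2.80: the type IV collagen chains Col4a1 and Col4a2 rose by 3.68 ± 0.39 (adjusted p = 0.00155) and 3.46 ± 0.35 (adjusted p = 0.00138). Rgs5 and Pdgfrb, markers of pericytes, rose by 3.36 ± 0.44 (adjusted p = 0.00285) and 2.99 ± 0.27 (adjusted p = 0.00118). Of 8 Weibel-Palade body genes, the storage site of Vwf and Angpt2, 5 rose and 1 fell; the 5 take in Angpt2 itself and Selp, which is also among the surface genes. Of 19 endoglin, ALK1 and BMP partners of Eng 4 rose and none fell, with a median of 0.67, a share close to the 21.2% of all genes called higher. Of 14 angiogenesis inhibitors 9 rose. Of 12 hypoxia-induced genes, Slc2a1 and Car9 rose, and the 2 that fell were Vegfa and Angptl4, already given above.

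**Figure D4:**
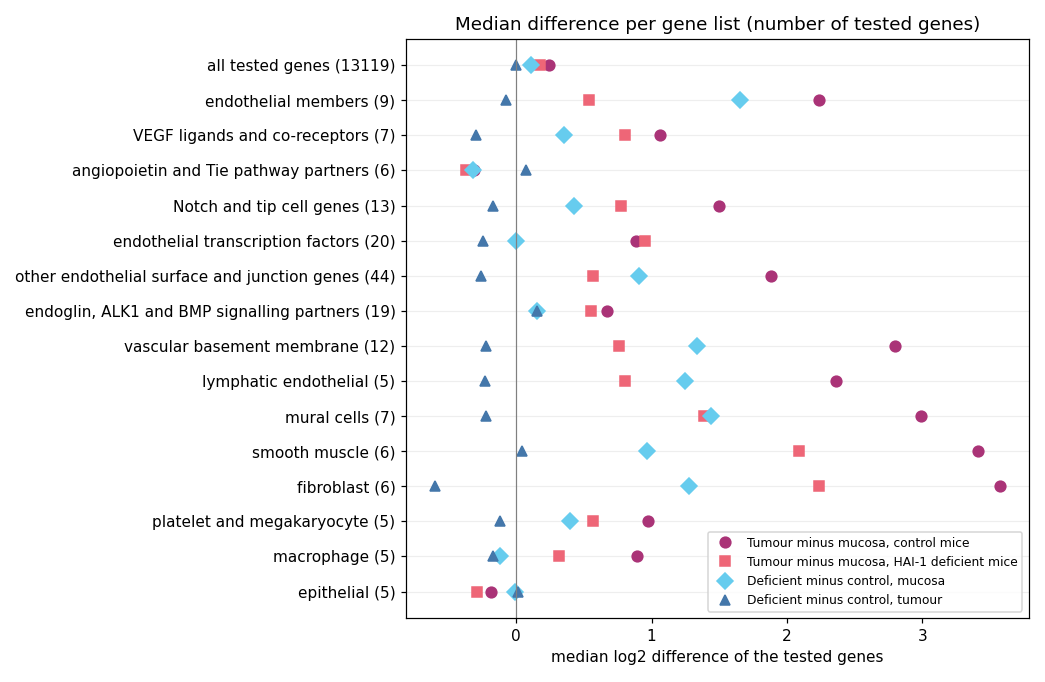
Median log2 difference over the tested genes of each list, in 4 comparisons; the number of genes tested is in brackets. In control tumours over control mucosa the medians of smooth muscle (3.42) and fibroblast (3.58) markers exceed that of the endothelial members (2.24), and in deficient over control mucosa the members' median of 1.65 stands beside 1.44 for mural cells and -0.01 for epithelial markers.

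Markers of other cells moved in the same comparisons. Linear signals of a list were summed on each array and given as log2, so the brightest genes weigh most in a sum. For the 9 tested members this was 9.52 to 9.57 in control mucosa, 10.72 to 11.28 in deficient mucosa, 11.38 to 11.93 in control tumours and 11.48 to 12.22 in deficient tumours. Over the same groups in that order, mural cell markers read 9.34 to 9.75, 10.74 to 11.28, 12.54 to 12.55 and 12.24 to 12.26. Both sums had control mucosa as their lowest group and deficient mucosa between it and the tumours.

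Fibroblast markers read 10.93 to 11.13 in control mucosa, 11.92 to 12.43 in deficient mucosa, 14.68 to 14.81 in control tumours and 14.23 to 14.28 in deficient tumours. Smooth muscle markers read 9.81 to 10.01, 10.69 to 11.20, 12.76 to 13.66 and 12.48 to 13.37 in the same order, and lymphatic markers 8.99 to 9.17, 9.81 to 10.31, 10.86 to 10.95 and 10.81 to 11.14. In control tumours all 6 fibroblast, all 6 smooth muscle, 6 of 7 mural and 3 of 5 lymphatic markers rose; in deficient mucosa none of these was called. Some genes are in 2 lists: Des (mural and smooth muscle), Flt4 (VEGF and lymphatic) and Vegfa and Angptl4 (each also hypoxia-induced). So are Selp and Edn1 (surface and Weibel-Palade). Gp1ba (Weibel-Palade and platelet) is listed in both but was not among the tested genes, so it adds to no count or sum.

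Epithelial markers summed to 16.91 to 16.98 in control mucosa, 16.82 to 17.02 in deficient mucosa, 16.72 to 16.81 in control tumours and 16.70 to 16.81 in deficient tumours, and the control tumour arrays lay below control mucosa without overlap. None of the 5 was called in control tumours or in deficient mucosa, and 1, Vil1, was called lower in tumours averaged over genotypes (-0.58 ± 0.17, adjusted p = 0.0301). Platelets also carry Pecam1, Esam and Vwf. Platelet markers summed to 10.81 to 10.83, 11.78 to 12.10, 10.81 to 11.27 and 10.87 to 11.45, and 1 of 5, Pf4, rose in control tumours by 1.81 ± 0.31 (adjusted p = 0.00614). The brightest, Gp1bb, read 10.39 and 10.50 in control mucosa and 11.85 and 11.51 in deficient mucosa (adjusted p = 0.163). None of the 5 platelet markers was called in deficient over control mucosa, where their median difference was 0.39. Macrophage markers read 11.41 to 12.06, 11.28 to 11.94, 12.25 to 12.39 and 11.67 to 12.004, and 2 of 5 rose in control tumours. Of 3 leukocyte markers and the 1 erythroid marker tested, none was called in either comparison. No marker of these lists was at 0 on any array, and the platelet gene Gp9 and the erythroid gene Epb42 were under the filter on all 8. The part of stromal, mural or platelet RNA in the endothelial differences was not tested.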

How the data were processed

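The deposited table holds 1 log2 signal per probe set and array for 8 Affymetrix arrays. Per the submitters' processing notes, MAS5 and RMA were used, in roles and versions not given in the sources used here. As deposited, the authors' log2 values were used unchanged; their mean on the linear scale, trimmed by 2% at each end, was equal on all arrays, as MAS5 scaling leaves it.

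Probe sets of a single gene with a mean of at least the 40th percentile, 5.20 on the log2 scale (36.8 linear), were kept, and the one with the highest mean stood for its gene. Group means of all 8 arrays were fitted with limma 3.58.1 in R 4.3.3, with 4 residual and 3.52 prior degrees of freedom, 6 contrasts and Benjamini-Hochberg adjustment over 13119 genes. The fit was tested on simulated data. Tables and figures used Python 3.11.15. Precision is limited by having only 2 arrays in a group.

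The members and gene lists were chosen with earlier results of these data known. All members and Spint1 are described. From each list, genes were named among the 4 with the widest called change in a comparison (or the 2 with the smallest p where none was called), and 5 genes by their correlation with the members' mean scaled level. Detection calls, probe positions and proteins were not used here.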

Additional observations from a re-analysis of the deposited data

How the results depend on the processing

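The number of members called in control tumours stayed between 4 and 7 over 17 alternatives, and that averaged over genotypes between 4 and 7 over 16. In deficient mice, between tumours and for the interaction it was 0 in every alternative run. In deficient mucosa, where 1 member was called, the count was 0 with no filter, with the mean of a gene's probe sets and with only the groups compared, and 2 with a filter at the 60th percentile and with a mean-variance trend. Leaving out 1 array at a time gave 0 to 2 members there. All-gene calls ranged from 0 to 370 around 138 in deficient mucosa and from 1945 to 4147 around 3777 in control tumours; the causes were not tested.

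Arrays of the same number deviated together only weakly (correlations of -0.138 to 0.220), so the numbers were not taken as pairs. With the replicate block, 1 member was called in deficient mucosa, 6 in control tumours, 6 in the average and 0 elsewhere.

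Some values that were not called changed sign. Quantile normalization gave -0.14 for Tek between tumours and 0.0153 for the Pecam1 interaction. The spike-in signal as a term gave 0.17 for Eng between tumours and 0.32 for the Pecam1 interaction. The mean of probe sets gave -0.25 for Angpt2 in deficient tumours over deficient mucosa and turned the called Tgfbr3, a co-receptor related to Eng, from 1.80 to -0.40 in control tumours; that mean takes in its dimmer probe sets. It also gave 0.69 for Angpt2 (adjusted p = 0.361) and 1.01 for Cdh5 (adjusted p = 0.0765) in control tumours, which were no longer called. Without a filter these were not called either (adjusted p = 0.0718 and 0.0752).

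Leaving out 1 array at a time gave these ranges. In deficient over control mucosa Kdr ran from -0.77 to 0.56. Between tumours Tek ran from -0.16 to 0.20, Kdr from -1.27 to 0.10, Eng from -0.65 to 0.49, Pecam1 from -0.60 to 1.66, Esam from -0.50 to 0.0447 and Vwf from -0.92 to 0.54. In control tumours over control mucosa Pecam1 ran from -0.78 to 1.48. In deficient tumours over deficient mucosa Flt1 ran from -0.37 to 1.31, Pecam1 from -0.29 to 0.96 and Vwf from -0.19 to 1.26. For the interaction Kdr ran from -1.17 to 0.21, Flt1 from -1.50 to 0.17 and Pecam1 from -1.15 to 1.11.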
